A study of Mus musculus with 6 samples.

Results

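The Z-disc core genes described here are 10 genes that build the anchor of the sarcomere's thin filaments: Actn2, Actn3, Tcap, Myoz1, Myoz3, Myot, Ldb3, Pdlim3, Pdlim5 and Pdlim7. They were taken by name, and the platform annotation gave them 28 of the 45281 probes of the array. Of these, 16 probes, at least 1 for each of the 10 genes, were above background (detection p under 0.05) on at least 3 of 6 arrays and were tested among 3422 such probes. The tissue was the tibialis anterior, which lifts the foot and consists mainly of fast fibres, and its RNA was hybridised to Illumina bead arrays, 1 per mouse. All mice were males aged 8 weeks with a mixed Sv129/Black Swiss strain background. The 3 wild type mice carry the intact gene and the 3 Neb SH3-deleted mice (labelled Neb∆SH3) lack the SH3 domain of nebulin, the giant thin filament protein whose SH3 end lies in the Z-disc. The sources used here give neither the zygosity nor any treatment. The comparison addresses whether loss of that domain alters transcript levels in the muscle.

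The Z-disc marks the border between sarcomeres, where α-actinin crosslinks actin filaments of opposite polarity. Telethonin ties the ends of titin together there, calsarcins (myozenins) link α-actinin to calcineurin, myotilin binds α-actinin and filamin C, and several PDZ-LIM proteins attach to α-actinin. In mouse muscle Actn3, Myoz1 and Myoz3 belong to fast fibres, and nebulin reaches into the Z-disc with its SH3 domain.

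None of the 16 Z-disc core probes differed between the genotypes past an adjusted p of 0.05 (limma with Benjamini-Hochberg adjustment over all probes tested, smallest adjusted p 0.984), where 0% of all tested probes did. At an unadjusted limma p under 0.05 there was 1 of 16, a probe of Actn3, beside 4.3% of all tested probes. The 3 arrays of a group did not overlap with those of the other for 1 of 16, the same Actn3 probe, beside 9.06% of all tested probes. Of the 16 probes 5 were higher and 11 lower in the mutant, with a median log2 difference of -0.03, while the median over all tested probes was -0.03 and 43.9% of them were higher. This count depended on the processing and on single arrays, with 10 higher and 6 lower without Neb SH3-deleted replicate 1, 8 and 8 with cyclic loess and without the pair of arrays described below, and 3 and 13 with median scaling. The differences of the 16 ran from -0.42 for Myoz1 to 0.67 for an Actn3 probe. All differences below are Neb SH3-deleted minus wild type on the log2 intensity scale, with 95% intervals from limma.

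**Figure D1:**
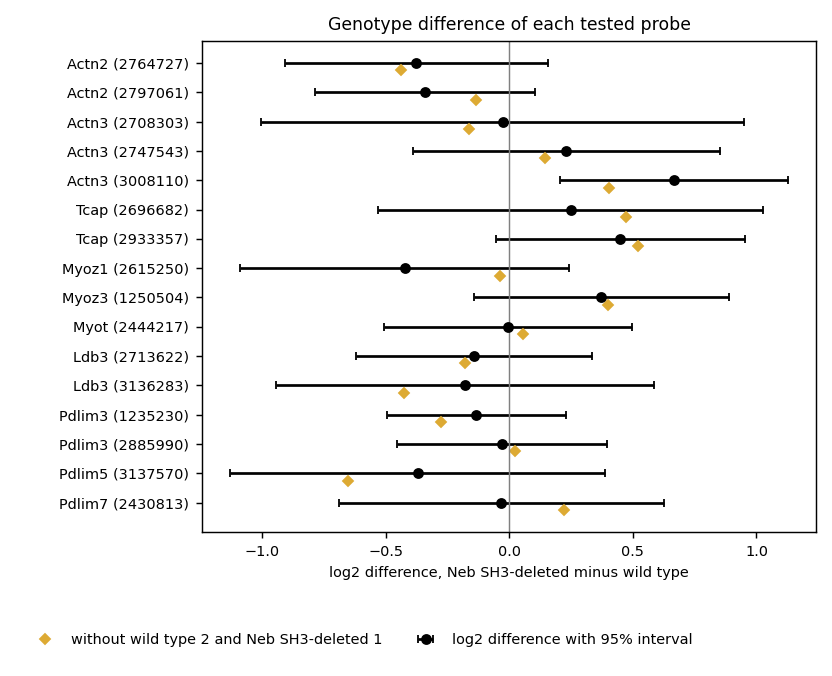
Log2 difference (horizontal axis, Neb SH3-deleted minus wild type) of each of the 16 tested probes (vertical axis, gene and probe number), with 95% interval bars, and, as diamonds, the difference without replicate 2 of the wild type and replicate 1 of the mutant. The interval lies wholly above 0 for the Actn3 probe ILMN_3008110 alone, at 0.67, and its diamond stands at 0.40.

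Signal over background and array quality set the limits. Per array, 4000 to 5844 probes were above background. On the first principal component of the tested probes (32.6% of the variance), wild type replicate 2 (at 10.7) together with Neb SH3-deleted replicate 1 (12.4) stood apart from the other 4 arrays, at -6.64 to -5.09, so each difference is also given without these arrays. The Neb probe was above background on 0 of 6 arrays and does not check the labels. That the tissue is skeletal muscle was checked on 6 probes of 5 fibre markers (Acta1, Ckm, Mb, Myh4 and Tnnt3). Of these, 6 of 6 were above background on all arrays, which does not tell 1 muscle from another. The filter was passed by 0 of 2 satellite cell, 0 of 3 tendon and 1 of 5 heart muscle marker probes. Because whole muscle was measured, fewer cells of a type and less RNA per cell cannot be told apart. Levels are set against each other only within a probe, since bead probes differ in brightness for the same transcript. The probe sequences were not used here, so whether a probe also reads a related family member was not tested.

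α-Actinin 2, from Actn2 (chromosome 13, 12269426 to 12340732, GRCm38.p6), crosslinks actin at the Z-disc. Its probe ILMN_2797061 was at log2 levels of 8.99, 9.06 and 8.39 in wild type replicates 1, 2 and 3 and at 8.30, 8.51 and 8.60 in Neb SH3-deleted replicates 1, 2 and 3. Wild type replicates 1 and 2 were high and replicate 3 lay among the Neb SH3-deleted arrays, so the groups overlapped. The difference was -0.34 (-0.79 to 0.10, adjusted p 0.984 by limma). A second probe, ILMN_2764727, was at 8.08, 8.15 and 7.42 in wild type and at 7.90, 7.19 and 7.43 in Neb SH3-deleted muscle. Wild type replicate 3 was again the low array of its group. This probe differed by -0.38 (-0.91 to 0.16), and its levels correlated with those of the first at r = 0.64 over the 6 arrays. With 1 array left out, the first probe ran from -0.55 to -0.22 and the second from -0.61 to -0.22, the lower ends without wild type replicate 3. Without the pair of arrays apart on the first component they were at -0.14 and -0.44. When arrays were scaled to a common median instead of quantile normalized, they were at -0.66 and -0.65. That scaling lowered the value of every tested Z-disc core probe, to a median of -0.25, where all tested probes had -0.0948. The third Actn2 probe, ILMN_1258081, was above background on 0 of 6 arrays, at signals of 83.8 to 90.2.

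α-Actinin 3, from Actn3 (chromosome 19, 4861216 to 4877909), is the form of fast glycolytic fibres, and its 3 probes did not give the same picture. ILMN_3008110 was at 6.35, 6.15 and 6.41 in wild type and at 7.35, 7.02 and 6.54 in Neb SH3-deleted muscle. All 3 Neb SH3-deleted arrays lay above all 3 wild type arrays, with replicate 3 of each group nearest the other. The mean was 6.30 ± 0.14 for wild type against 6.97 ± 0.41 for the mutant (SD, n = 3 each), a 1.59-fold difference (log2 0.67, 0.20 to 1.13). By limma the unadjusted p was 0.00898, rank 22 of 3422, and the adjusted p 0.984, so the difference failed the correction. Its signals were 173, 145 and 150 in wild type and 195, 231 and 151 in Neb SH3-deleted muscle before normalization, where replicate 3 of the mutant lay below wild type replicate 1. With 1 array left out the difference ran from 0.48 without Neb SH3-deleted replicate 1 to 0.88 without Neb SH3-deleted replicate 3. It was 0.43 with median scaling, 0.40 without background correction and 0.40 without the pair of arrays apart on the first component.

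The other Actn3 probes did not show this difference. ILMN_2747543 was at 7.72, 7.93 and 8.91 in wild type and at 8.33, 8.24 and 8.68 in Neb SH3-deleted muscle, so that wild type held both the lowest and the highest array. Its difference was 0.23 (-0.39 to 0.85), and it turned to -0.0778 with median scaling. ILMN_2708303 was at 8.87, 7.34 and 8.55 in wild type and at 7.59, 9.20 and 7.89 in Neb SH3-deleted muscle. This probe spanned 1.86 log2 units over the 6 arrays, a wider span than 99.2% of tested probes, and its difference was -0.03 (-1.004 to 0.95). With 1 array left out it ran from -0.52 to 0.29, and the former from -0.0037 to 0.59. Over the 6 arrays the 3 pairs of Actn3 probes correlated at 0.0767, 0.17 and -0.0308. For comparison, the 479 pairs of tested probes of a shared gene had a median r of 0.18 (interquartile range -0.18 to 0.48), so weak agreement between probes of a gene was common on these arrays.

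Telethonin, from Tcap (chromosome 11, 98383811 to 98384953), caps the ends of titin at the Z-disc of striated muscle. ILMN_2933357 was at 8.68, 8.73 and 8.09 in wild type and at 9.04, 8.56 and 9.24 in Neb SH3-deleted muscle. Neb SH3-deleted replicates 1 and 3 were above all wild type arrays, and replicate 2 lay within them. The difference was 0.45 (-0.05 to 0.95, unadjusted p 0.0751 and adjusted p 0.984 by limma). ILMN_2696682 was at 8.03, 8.41 and 6.86 in wild type and at 8.21, 7.54 and 8.30 in Neb SH3-deleted muscle. Wild type replicate 3 stood lowest on this probe too, and Neb SH3-deleted replicate 2 was next. The difference was 0.25 (-0.53 to 1.03). The pair correlated at r = 0.86 over the arrays, above 95.8% of the probe pairs of a shared gene. Without wild type replicate 3 the differences were 0.24 and -0.20, and without the pair of arrays apart on the first component they were 0.52 and 0.47. With median scaling they were 0.11 and -0.0291.

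**Figure D2:**
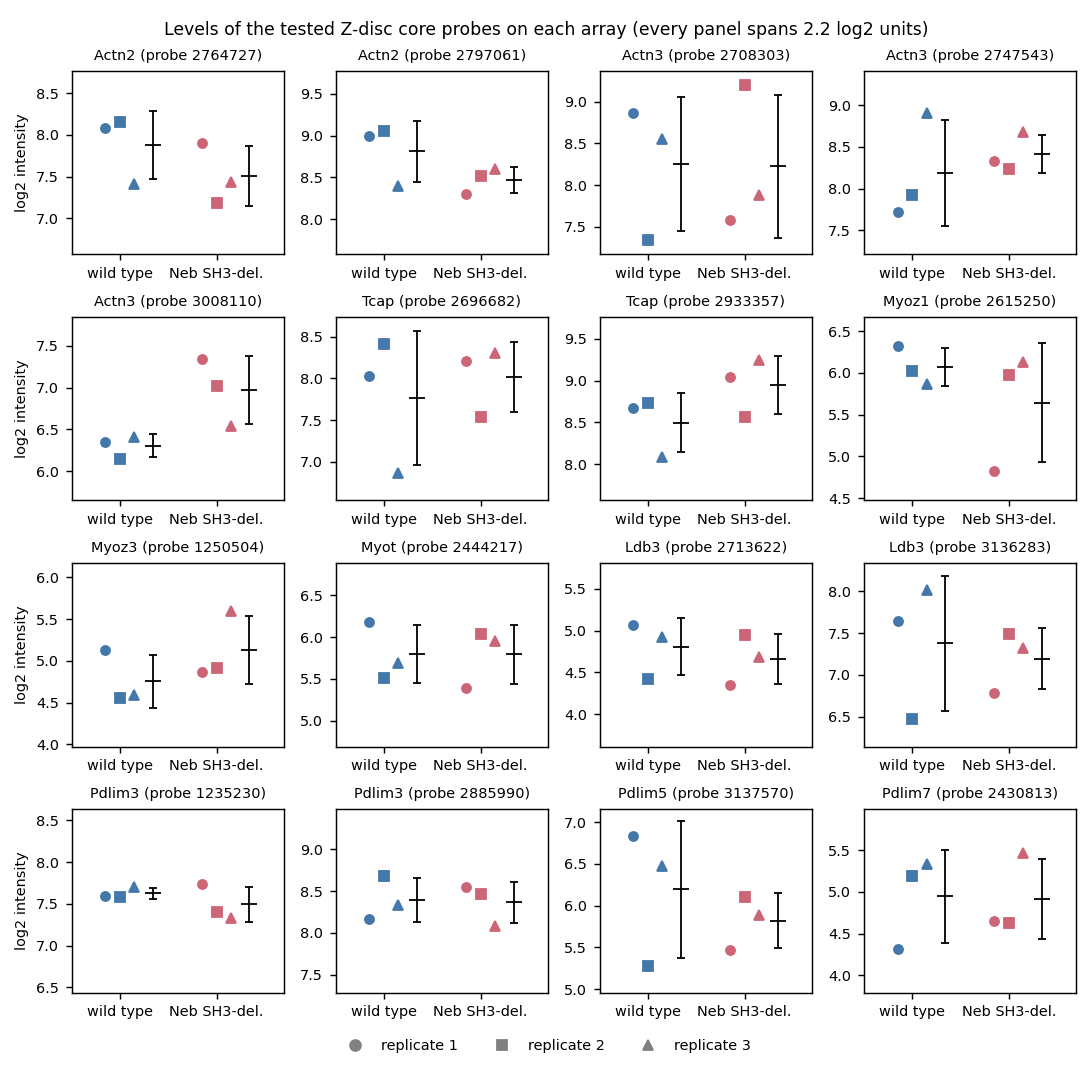
Normalized log2 intensity (vertical axis, 2.2 log2 units in each panel) of the 16 tested probes on the 3 wild type and 3 Neb SH3-deleted arrays (horizontal axis), with marker shapes for replicates 1, 2 and 3 and the mean ± SD of each group in black. The groups separate for the Actn3 probe ILMN_3008110 alone (6.15 to 6.41 against 6.54 to 7.35), and in wild type replicate 3 the Tcap probe ILMN_2696682 stands at 6.86.

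Calsarcin 2, from Myoz1 (chromosome 14, 20649102 to 20656540), joins α-actinin and calcineurin in fast fibres. Its probe, ILMN_2615250, was at 6.32, 6.02 and 5.87 in wild type and at 4.83, 5.98 and 6.13 in Neb SH3-deleted muscle. Neb SH3-deleted replicate 1 alone was low, and the other mutant arrays lay within the wild type range. The difference of -0.42 (-1.09 to 0.24) was -0.0155 without that array and -0.17 without background correction. Calsarcin 3, from Myoz3 (chromosome 18, 60573717 to 60591716), is another fast fibre form. Its probe ILMN_1250504 was at 5.13, 4.55 and 4.59 in wild type and at 4.87, 4.92 and 5.60 in Neb SH3-deleted muscle. Neb SH3-deleted replicate 3 was the highest array and wild type replicate 1 the second highest. The difference was 0.37 (-0.14 to 0.89), 0.14 with Neb SH3-deleted replicate 3 left out and 0.56 with wild type replicate 1 left out. Without background correction it was 0.12. ILMN_1250504 was dim, at signals of 91.6 to 115, and the platform annotation names no transcript for it. The other Myoz3 probes, ILMN_3081836 and ILMN_3011346 (both NM_133363), were above background on 0 and 1 of 6 arrays.

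Calsarcins hold calcineurin at the Z-disc, so the genes of that phosphatase and of its NFAT targets were read beside them. Of 33 probes of 10 such genes 5 were tested, 3 higher and 2 lower, and 0 passed (limma, with 0 also at an unadjusted p under 0.05). Ppp3cb, a catalytic subunit, was at -0.36 (-0.77 to 0.05), Nfatc1 at 0.35 (-0.21 to 0.90) and Rcan1, a calcineurin inhibitor, at -0.26 (-0.76 to 0.23). The median over the 5 tested probes was 0.05.

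Myotilin, from Myot (chromosome 18, 44334053 to 44355740), binds α-actinin and filamin C. ILMN_2444217 was at 6.19, 5.52 and 5.70 in wild type and at 5.39, 6.04 and 5.96 in Neb SH3-deleted muscle. The groups covered nearly the same range, with an SD of 0.35 in each (n = 3). The difference was -0.0042 (-0.51 to 0.50), so the interval allows a change of up to 0.51 on the log2 scale in either direction. The second probe, ILMN_2478649, was above background on 0 of 6 arrays.

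Cypher, also called ZASP, from Ldb3 (chromosome 14, 34526699 to 34590314), is a PDZ-LIM protein that binds α-actinin, and it had 6 probes. ILMN_3136283, which the platform annotation ties to the RefSeq transcript NM_001039075, was at 7.65, 6.47 and 8.01 in wild type and at 6.78, 7.49 and 7.32 in Neb SH3-deleted muscle. Replicate 2 of the wild type and replicate 1 of the mutant, the arrays apart on the first component, were the lowest. The difference was -0.18 (-0.95 to 0.59), and without those arrays it was -0.43. ILMN_2713622 (NM_001039073) was dim, passing the detection threshold on all wild type arrays and on 2 mutant arrays, at 5.07, 4.42 and 4.92 against 4.35, 4.95 and 4.68. The same pair of arrays was lowest. Its difference was -0.14 (-0.62 to 0.33), and the 2 probes correlated at r = 0.88. Of the remaining 4 Ldb3 probes, ILMN_1250896 (NM_011918), ILMN_2513993 (NM_001039076) and ILMN_3071312 (NM_001039074) were above background on 0 of 6 arrays and ILMN_1241773 (NM_001039076) on 2. Their signals give no level for the transcripts they were designed on.

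Of the other PDZ-LIM genes, Pdlim3 (chromosome 8, 45885487 to 45919635) encodes the actinin-associated LIM protein. ILMN_1235230 was at 7.59, 7.58 and 7.70 in wild type and at 7.73, 7.41 and 7.33 in Neb SH3-deleted muscle, and ILMN_2885990 at 8.17, 8.68 and 8.34 against 8.55, 8.46 and 8.08. These were the steadiest of the 16 probes, spanning 0.40 and 0.59 log2 units over the 6 arrays. Their differences were -0.13 (-0.50 to 0.23) and -0.03 (-0.45 to 0.40). Both intervals lie within 0.50 log2 units of 0. With median scaling the differences were -0.44 and -0.29.

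Pdlim5 (chromosome 3, 142239585 to 142395719) encodes Enigma homolog, which binds α-actinin and protein kinase C. Its probe ILMN_3137570 (NM_019809) was at 6.84, 5.27 and 6.47 in wild type and at 5.47, 6.11 and 5.89 in Neb SH3-deleted muscle. Replicate 2 of the wild type and replicate 1 of the mutant were the lowest arrays, and among the other 4 the mutant arrays lay below the wild type arrays. The difference was -0.37 (-1.13 to 0.39, adjusted p 0.984 by limma). Without those arrays it was -0.66 at an unadjusted limma p of 0.01001 (adjusted 0.944). Without wild type replicate 2 alone it was -0.83 at an unadjusted limma p of 0.00295 (adjusted 0.998). Both settings leave out arrays that were lowest on this probe, so no conclusion is drawn from these p-values. The lowest adjusted p of this probe over all alternatives was 0.807. Without wild type replicate 1 the difference was -0.0500. Without background correction it was -0.21. The other probes of Pdlim5, ILMN_2595115, ILMN_2621862 and ILMN_2625458, were above background on 0, 0 and 1 of 6 arrays.

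Pdlim7 (chromosome 13, 55497487 to 55513473) encodes Enigma, whose LIM domains bind kinases. ILMN_2430813 was at 4.31, 5.19 and 5.34 in wild type and at 4.65, 4.62 and 5.47 in Neb SH3-deleted muscle, above background on 2 and 3 arrays. Each group held low and high arrays. The difference was -0.03 (-0.69 to 0.62). Its second probe, ILMN_1239436, was above background on 0 of 6 arrays, at signals of 78.1 to 83.9.

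**Figure D3:**
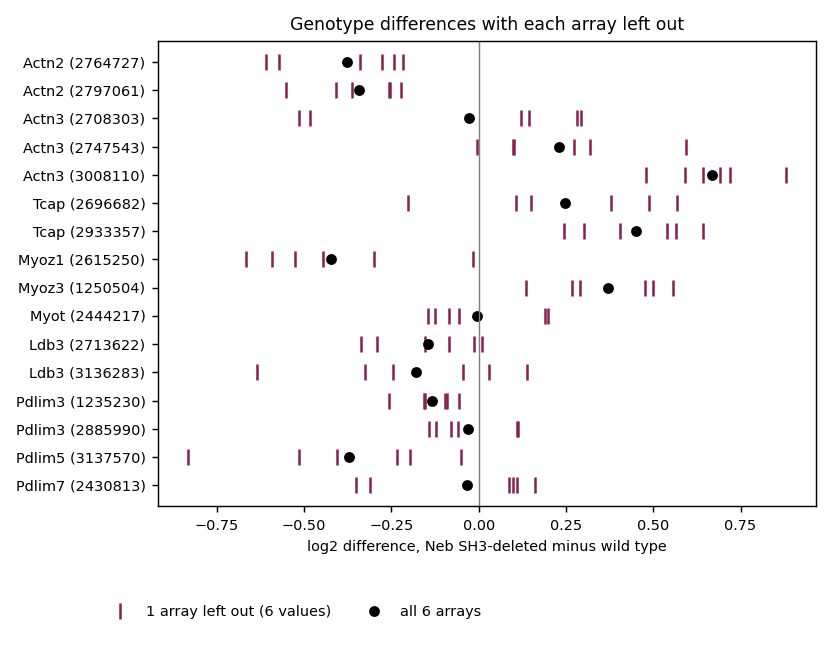
Log2 difference (horizontal axis, Neb SH3-deleted minus wild type) of each tested probe (vertical axis) with all 6 arrays (dots) and with each array left out in turn (6 bars per probe). The Actn3 probe ILMN_3008110 stays between 0.48 and 0.88, while the Pdlim5 probe ILMN_3137570 runs from -0.83 to -0.0500 and Myoz1 from -0.66 to -0.0155.

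The spread of the Z-disc core probes between animals was set beside that of all probes. Among probes above background on all 6 arrays, the 14 of Z-disc core genes spanned a median of 1.17 log2 units over the arrays, and the 1508 of all genes a median of 0.68. The 14 were also brighter, with a median mean level of 7.63 against 5.34, and the part of brightness in the wider span was not tested. The median half-width of the 95% interval was 0.52 for the 16 tested Z-disc core probes and 0.40 for all tested probes. For 11 of the 16 the interval lay within 1 log2 unit of 0, and for Actn3 (ILMN_3008110 and ILMN_2708303), Tcap (ILMN_2696682), Myoz1 and Pdlim5 it reached past 1 unit in some direction.

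Several members were low on the same arrays, 1 of each genotype. For 5 of the 16 probes, replicate 2 of the wild type and replicate 1 of the mutant were the lowest pair of arrays, beside 9.76% of all tested probes. For 1 of the 16, Pdlim3 ILMN_2885990, they were the highest pair, beside 8.62% of all tested probes. The 5 with the lowest pair were Actn3 ILMN_2708303, both Ldb3 probes, Myot and Pdlim5, a set chosen after the values were seen and therefore not tested. Among them the levels correlated pairwise at r = 0.62 to 0.94 over the 6 arrays, with Ldb3 ILMN_3136283 and Pdlim5 at 0.90. These points share the 6 arrays and their normalization. On these arrays the Actn3 probe was 1.16 log2 units below the mean of the other 4, Ldb3 ILMN_3136283 was 0.99 below and Pdlim5 0.95 below, whereas Actn2 ILMN_2764727 was 0.50 above and Tcap ILMN_2696682 0.63 above. The 5 tested slow fibre probes had a mean deviation of -0.26 in wild type replicate 2 and -0.40 in Neb SH3-deleted replicate 1. Of these, 3 were below their own mean on both arrays (Atp2a2, Myl2 and Mybpc1 ILMN_2969105), while Mybpc1 ILMN_2744469 was above it on both and Myl3 below it on the former only. The 13 tested fast fibre probes had mean deviations of 0.0211 and 0.11. The part of fibre type in the spread was not tested.

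**Figure D4:**
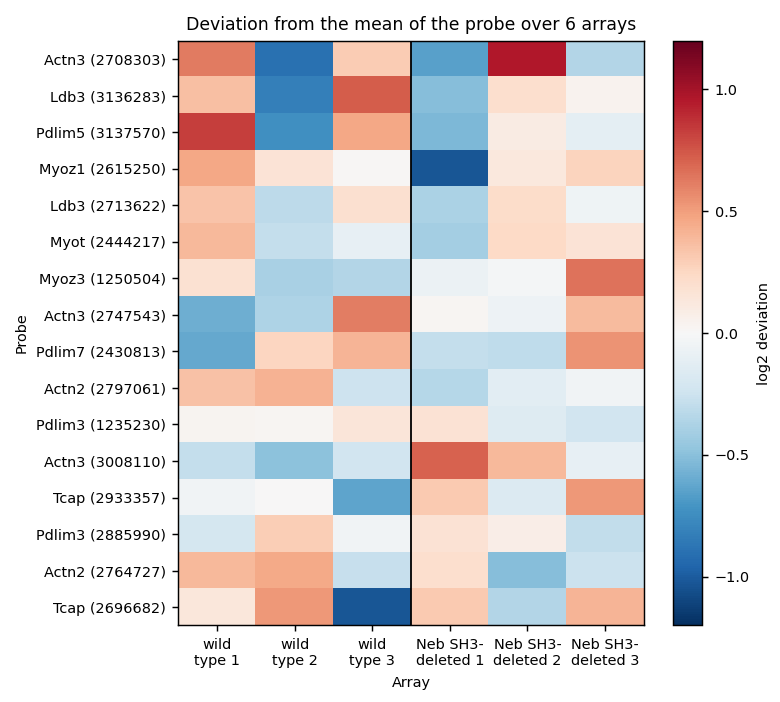
Deviation of each tested probe (vertical axis) on each array (horizontal axis) from its own mean over the 6 arrays, in log2 units by colour, with probes ordered by their sum in replicate 2 of the wild type and replicate 1 of the mutant. Actn3 ILMN_2708303, Ldb3 ILMN_3136283 and Pdlim5 ILMN_3137570 are blue on both of these arrays, and Tcap ILMN_2696682 is red there and darkest blue in wild type replicate 3.

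Promoters were read for Ldb3 and Pdlim5, whose levels ran together across arrays, and for Actn2. Actn2 ILMN_2797061 correlated with Ldb3 ILMN_3136283 at r = -0.28 and with Ldb3 ILMN_2713622 at 0.10. For Actn2 ILMN_2764727 these values were -0.57 and -0.40. The sequences are RefSeq's (GRCm38.p6), each 250 bases before to 50 after an annotated start, 5′ to 3′ on the gene's strand, and of the 10 genes 5 were matched in the table. Ldb3 and Pdlim5 each have 2 annotated starts there, and 1 window of each is printed. Capitals mark the E-box in its general form CANNTG, which is not particular to MyoD-family factors, and the CArG box of serum response factor. The CArG box was searched as CCWWWWWWGG and the MEF2 motif as YTAWWWWTAR (W is A or T, Y is C or T, R is A or G). All 3 motifs read alike on both strands.
Ldb3, chr14:34588632-34588931, minus strand: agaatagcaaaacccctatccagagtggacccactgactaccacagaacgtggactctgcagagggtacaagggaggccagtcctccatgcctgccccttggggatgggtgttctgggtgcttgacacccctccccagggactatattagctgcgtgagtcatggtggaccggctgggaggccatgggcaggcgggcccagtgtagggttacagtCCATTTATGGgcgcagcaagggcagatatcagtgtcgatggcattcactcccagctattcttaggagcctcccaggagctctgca
Pdlim5, chr3:142395647-142395946, minus strand: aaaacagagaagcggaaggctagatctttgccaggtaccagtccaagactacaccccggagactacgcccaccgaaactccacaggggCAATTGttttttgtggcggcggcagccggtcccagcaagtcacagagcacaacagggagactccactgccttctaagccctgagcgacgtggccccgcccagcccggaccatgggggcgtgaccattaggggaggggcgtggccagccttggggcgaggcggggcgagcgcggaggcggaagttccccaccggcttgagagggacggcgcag
Actn2, chr13:12340683-12340982, minus strand: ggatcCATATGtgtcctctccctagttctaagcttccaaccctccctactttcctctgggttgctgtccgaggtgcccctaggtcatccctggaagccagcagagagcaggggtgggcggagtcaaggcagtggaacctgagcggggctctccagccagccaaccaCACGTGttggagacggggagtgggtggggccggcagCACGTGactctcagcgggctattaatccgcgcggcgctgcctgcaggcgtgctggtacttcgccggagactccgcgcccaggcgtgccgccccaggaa
The printed Ldb3 window held 1 CArG box, 35 bases before its start, and no E-box, and the window of the other Ldb3 start held the same box 109 bases before that start. The printed Pdlim5 window held 1 E-box, 162 bases before its start, the window of the other Pdlim5 start held none, and the Actn2 window 3, at 245, 84 and 48 bases before it. No match to the MEF2 motif lay in these windows, those of the other starts included, and no matched motifs overlapped each other. Of 32841 promoter windows of this length, 72.3% held an E-box, 1.63% a CArG box and 3.19% a MEF2 motif. These matches describe the letters in the windows only.

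The levels of other genes that most resembled each member's brightest tested probe were found among 2948 tested probes with a symbol. For Myot the nearest was Ppic (r = 0.995), for Ldb3 Maea (0.988), for Pdlim5 Rsad1 (0.986), for Tcap Psmc4 (0.976), for Myoz1 Uqcrc2 (0.976) and for Actn2 Stip1 (0.967). For Myoz3, Pdlim3, Actn3 and Pdlim7 these were Xbp1 (0.993), Chic2 (0.987), Zfp623 (0.971) and Eif5a (0.962). Each is the highest of 2948 correlations over 6 arrays and is given as a description.

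Other genes of the Z-disc and its partners likewise gave no call. Of 68 probes of 27 such genes 19 were tested, 11 higher and 8 lower, with a median of 0.04, and 0 passed an adjusted p of 0.05 (limma, 1 at an unadjusted p under 0.05). That probe, of Capzb, the β subunit of the actin capping protein at the Z-disc, was at -0.63 (-1.06 to -0.20), with further Capzb probes at -0.26 and -0.0687. Fhl1, a LIM protein, gave 0.32 (-0.06 to 0.69) and, on another probe, -0.0615, and Jph2, which holds the triad membranes together, at 0.26 (-0.08 to 0.60). Des, desmin of the intermediate filaments that join neighbouring Z-discs, was at -0.0019 (-0.36 to 0.35), and titin, the partner of telethonin, had Ttn probes at 0.03 and -0.0606; these were named after their values were seen. Of 13 fast fibre probes 5 were higher and 8 lower (median -0.08), led in unadjusted p by Mybpc2 (-0.29), Myl1 (-0.29) and Tnnc2 (-0.27), and of 5 slow fibre probes 1 was higher and 4 lower (median -0.23), led by Mybpc1 (-0.45), Atp2a2 (-0.23) and a second Mybpc1 probe (-0.14). In these fibre lists 0 probes passed (limma, 0 also at an unadjusted p under 0.05).

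Markers of other cells were mostly dim. All 8 tested erythrocyte probes, of only 3 genes, were higher in the mutant (median 0.58, from 0.08 to 1.085), led by probes of Hbb-bs. The groups did not overlap for 1 of the 8, beside 9.06% of all tested probes. Their summed log2 level ran from 8.85 to 9.56 in wild type and from 9.78 to 9.94 in Neb SH3-deleted muscle. Their mean deviations were -0.46, -0.41 and 0.0766 in wild type replicates 1, 2 and 3. In Neb SH3-deleted replicates 1, 2 and 3 they were 0.12, 0.30 and 0.37. The 4 tested fibroblast and matrix probes were 2 higher and 2 lower, the 4 of pericytes and smooth muscle 2 and 2, and endothelial, leukocyte and heart muscle markers had 1 tested probe each, all lower. Mutant arrays lay wholly below wild type for 2 of the 4 pericyte and smooth muscle probes (Rgs5 ILMN_2979824 and Acta2 ILMN_2923445). They lay wholly above for 0 of the 4, and another Acta2 probe was at 0.28. The endothelial probe, of Pecam1, was also wholly lower, above background on 3 wild type and 0 mutant arrays. None of the marker probes passed an adjusted p of 0.05 by limma, and at an unadjusted p under 0.05 there were 2 erythrocyte probes and 1 of pericytes and smooth muscle. The part of other cells in the Z-disc core values was not tested.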

How the data were processed

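The authors deposited a non-normalized table whose columns, per the file headers, are average signal intensities and detection p-values. They also deposited processed values that behave as log2 values and share 1 distribution (median 6.10). Of the tools only lumi is named, without version, in the submitters' processing notes, and whether the scale is plain log2 or variance-stabilized stays unknown. Labels gave groups and replicate numbers and call the samples biological triplicates. RNA was extracted with Trizol and labelled with biotin, per the labels' protocols.

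Intensities were background corrected (normexp by limma, fitted on the detection p-values, with an offset of 16), taken to log2 and quantile normalized. A probe was kept, on its own, where its detection p was below 0.05 on 3 or more of the 6 arrays. The test of genotype was limma 3.58.1 (R 4.3.3), lmFit then eBayes without covariates, two-sided, and p-values were adjusted by Benjamini-Hochberg over 3422 probes. The path was run on simulated data with larger changes than those of the Z-disc core probes and less noise than many of them show. That run therefore does not gauge the power for differences of the size seen here. Of all probes, 34885 had 1 symbol in the platform annotation, and gene positions are RefSeq's. The number of arrays and the signal over background limit the precision.

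Members, lists and alternatives were chosen with earlier results of these data known. The text names every member probe, up to 3 probes of smallest p per further Z-disc, calcineurin or fibre list, and the nearest pattern of each member's brightest probe. Alternatives were background correction, offset, normalization, the deposited values, filters, 1 probe per symbol, a replicate block, array weights, variance prior and arrays left out.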

Additional observations from a re-analysis of the deposited data

How the results depend on the processing

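In 18 alternatives the probes past an adjusted p of 0.05 numbered 0 among all probes and 0 among the Z-disc core (limma), with 36 to 1895 probes at an unadjusted p under 0.05 (147 as reported), the extremes coming from the strictest filter (1141 probes tested) and from no filter (45281 tested). A block for the slide could not be fitted, since no source used here names the slides. The labels do not say that replicate numbers pair the animals, and within-group deviations of arrays that share a number had correlations of -0.22, -0.18 and 0.0937. With the replicate block 0 probes passed, 117 had an unadjusted p under 0.05, and no call changed.

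The median of the members was -0.25 with median scaling, where all probes had -0.0948, and between -0.15 and 0.0641 when single arrays were left out. The background correction changed the size of several differences: without it, with an offset of 50 and in the authors' deposited values, Myoz3 was at 0.12, 0.18 and 0.12 (0.37 as reported), Myoz1 at -0.17, -0.24 and -0.16 (-0.42), Ldb3 ILMN_2713622 at -0.0441, -0.0655 and -0.0431 (-0.14), Pdlim5 at -0.21, -0.27 and -0.21 (-0.37) and Actn3 ILMN_3008110 at 0.40, 0.50 and 0.40 (0.67). Of 280 member values under alternatives, 27 turned direction, none of a called probe, and the cause was not tested. With cyclic loess these were Myot (0.0050), Pdlim3 ILMN_2885990 (0.0257) and Pdlim7 (0.0094). With median scaling they were Actn3 ILMN_2747543 (-0.0778) and Tcap ILMN_2696682 (-0.0291), and with array weights Pdlim3 ILMN_2885990 (0.0246) and Pdlim7 (0.0910). Without both arrays apart on the first component they were Myot (0.0563), Pdlim3 ILMN_2885990 (0.0209) and Pdlim7 (0.22). With each array left out, the ranges that crossed 0 were -0.52 to 0.29 (Actn3 ILMN_2708303), -0.0037 to 0.59 (Actn3 ILMN_2747543), -0.20 to 0.57 (Tcap ILMN_2696682), -0.15 to 0.20 (Myot), -0.34 to 0.0101 (Ldb3 ILMN_2713622), -0.63 to 0.14 (Ldb3 ILMN_3136283), -0.14 to 0.11 (Pdlim3 ILMN_2885990) and -0.35 to 0.16 (Pdlim7). The other 8 tested member probes kept their direction in all alternatives in which they were tested. Signal over background limits the 12 member probes that were not tested.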
